A study of Mus musculus with 12 samples.

Results

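The genes described here are 32 imprinted genes of the mouse and genes that act on imprints, chosen by name. A row with their symbol was found for 28 of the 32, in tables of 19996 genes (SL and overexpression) and 19718 genes (2i). H19, Meg3, Rian and Kcnq1ot1, which are noncoding RNAs of imprinted loci, were matched to no row and were not analysed here. Of the 28 members, 23 were expressed well enough for a test in SL, 24 in 2i and 23 in the overexpression comparison. Nap1l5, Zim1 and Magel2 were below the minimum (a group mean of 1 FPKM) in all 3 comparisons, Usp29 in SL and overexpression, and Dlk1 in 2i. Dlk1 had more than 1 row, and the row used was the one with values above 0. Peg10 was left out in SL and overexpression because of values that could not be used, described with that gene.

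An imprinted gene is transcribed mainly from the copy inherited from 1 parent. The silent copy is marked in the germ line, usually by DNA methylation at a control region shared by neighbouring genes, and the mark is kept after fertilization while most other methylation is erased. Zfp57, a zinc finger protein bound to methylated control regions, protects many of these marks in embryonic stem cells. Many paternally expressed genes promote fetal growth and many maternally expressed ones restrain it, and imprints of cultured stem cells can be lost. RNA levels alone do not separate the parental copies, so every value below is a sum over both.

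The libraries, 12 in all, were made from polyadenylated RNA of mouse embryonic stem cells and fall into 6 groups of 2. The Foxd3fl/fl;Cre-ER cells lose their floxed Foxd3 once 4-hydroxytamoxifen activates the recombinase. Foxd3 encodes a forkhead transcription factor of pluripotent cells. SL deleted cells (2 µM 4-hydroxytamoxifen, 3 days) and untreated SL floxed cells were grown in 15% fetal bovine serum with leukemia inhibitory factor on irradiated mouse fibroblast feeders. The 2i groups carried the same alleles and treatments in N2B27 medium with leukemia inhibitory factor and the inhibitors PD0325901 (0.4 µM) and CHIR99021 (3 µM), and no feeders are named for them. The tetON Foxd3 cells carry a doxycycline-inducible Foxd3, and the wild-type (WT) LF2 cells do not. Both lines received doxycycline (1 µg/µl as labelled) for 3 days in serum and leukemia inhibitory factor without feeders. All 4 floxed-line groups carry the floxed allele and Cre-ER, and no group received tamoxifen without that allele. Whether the 2 replicates of a group were separate cultures is not stated, so the spread that p-values measure is that of these samples and may be technical.

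Foxd3 itself was read first as the check of the labels. Its FPKM (a level scaled by transcript length and library size) was 1.62 and 1.83 in SL deleted against 4.53 and 4.81 in SL floxed, a limma log2 difference of -1.06 (adjusted p = 0.139). It was 53.2 and 50.1 in tetON Foxd3 against 10.6 and 14.1 in WT, a difference of 1.99 (adjusted p = 0.0139, limma). In 2i it was 2.07 and 2.45 in the libraries labelled deleted against 2.51 and 2.42 in floxed, a log2 difference of -0.09 (95% interval -0.33 to 0.15, limma adjusted p = 0.463). The authors' deposited table lists it 1.7-fold up in 2i (p = 9.43e-06 after adjustment), so the 2 measures do not agree. After median-of-ratios scaling of the libraries the limma log2 difference was -0.25 (95% interval -0.48 to -0.016, adjusted p = 0.0590). The 2i group is therefore called "labelled deleted" throughout, and no direction in 2i is assigned to a loss of Foxd3. The pluripotency markers were expressed in all 12 libraries, all 10 of them above 1 FPKM in each. Each library had 11033 to 11919 genes at 1 FPKM or more, and the authors' group mean reads summed to 53193800 and 54096100 in SL, 24278900 and 27062500 in 2i, and 52789800 and 52911400 in overexpression. The depth of a single library is not known.

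**Figure D1:**
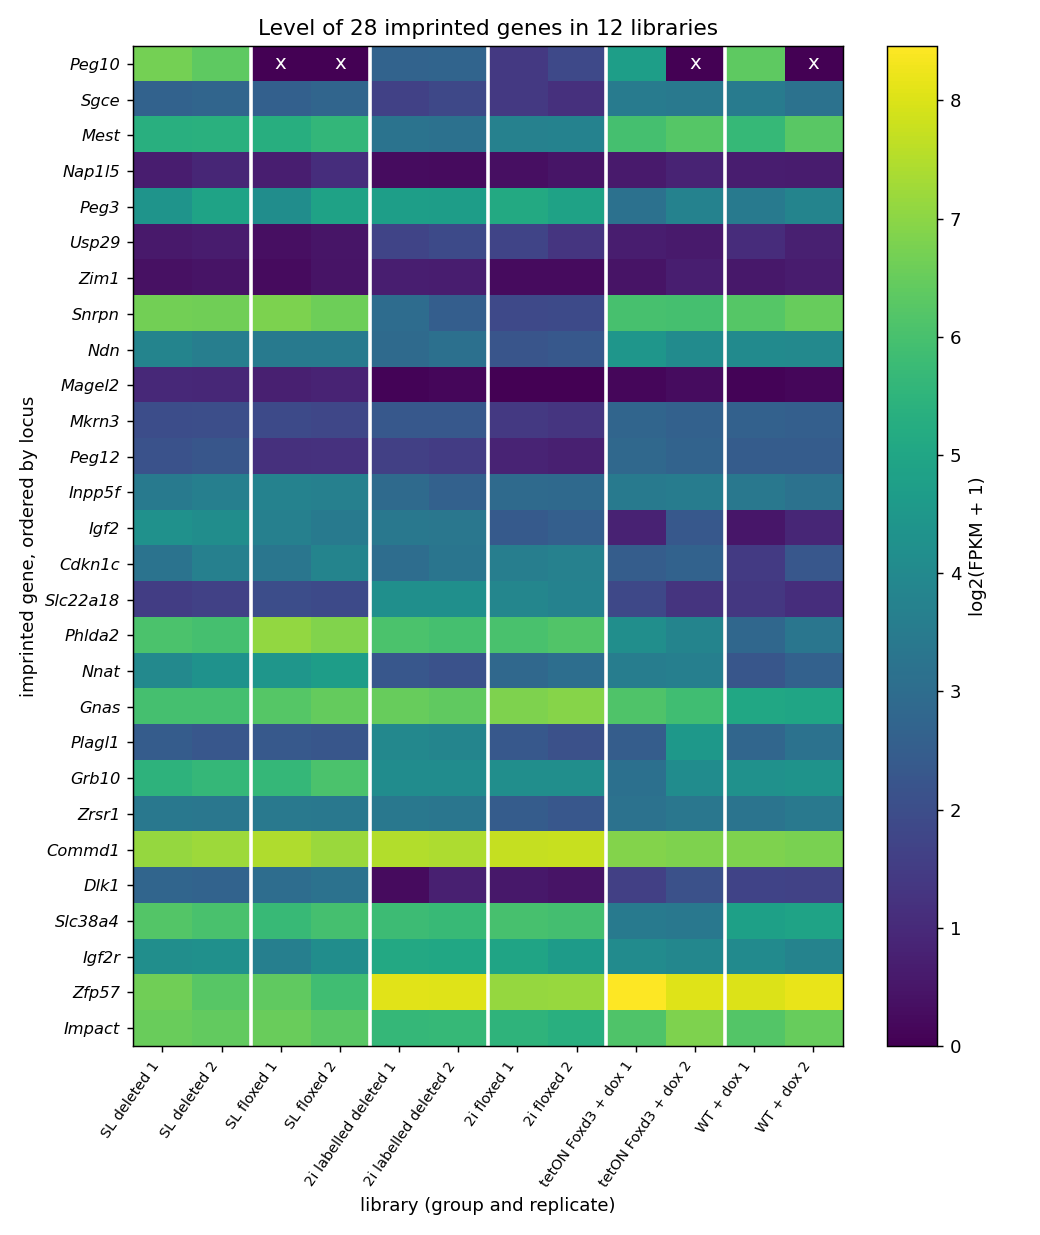
Expression of the 28 members (rows, ordered by locus) in the 12 libraries (columns, by group), as log2(FPKM + 1), with an x where the listed 0 is a failed estimate. Higher values are brighter. Snrpn is brighter in the SL, tetON Foxd3 and WT libraries (61.0 FPKM and above) and darker in all 4 of 2i (6.87 FPKM and below). Zfp57, Impact and Commd1 are at 39.3 FPKM or above in every library.

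Members differed widely in level. In SL floxed cells, mean FPKM ran from 0.277 for Zim1 to 159 for Commd1 among members with usable values. Commd1, a regulator of copper and NF-κB pathways whose gene holds Zrsr1 in an intron, was at a mean of 109.7 FPKM or above in all 6 groups. Its reads were low beside its FPKM, with a group mean of 1610 in SL floxed. Impact had 18213 reads there at a mean of 85.0 FPKM, so the ranking by FPKM is not one by reads. Zfp57 was at 69.8 ± 18.4 (SD, n = 2) FPKM in SL floxed, 140 ± 0.407 in 2i floxed and 272 ± 23.9 in WT. The stranding of the libraries is not stated, so reads of overlapping genes such as Zrsr1 and Commd1, or Snrpn and Snurf, cannot be told apart. The identifier given for Snrpn carries the name Gm38393 in GENCODE M21, within the Snrpn locus.

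The 2 untreated floxed groups showed how far the members' levels lay apart between the cultures. The 2 tables were normalized separately, so these levels are descriptions with no test, given as RPM, the authors' mean reads of a gene scaled to the same total in every group. Among 23 members with at least 1 RPM in both, 12 differed by 2-fold or more between SL floxed and 2i floxed, against 26.7% of 11669 genes. Of the 12, 10 were higher in SL and 2 (Slc22a18 and Zfp57) in 2i, and the members' median log2 ratio of SL to 2i was 0.72, against 0.10 over all genes. Feeders and medium differ together between these groups and cannot be told apart.

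Snrpn, a splicing-associated protein gene of the Prader-Willi region, stood at 170 RPM in SL floxed, 133 in WT and 9.38 in 2i floxed, a ratio of 18.1 between SL and 2i. Its FPKM was 110 and 96.3 in SL floxed against 2.67 and 2.72 in 2i floxed, a ratio of the means of 38.2, so reads and FPKM both put 2i far below. Peg10, a gene of retrotransposon origin needed for the placenta, was at 379 RPM in SL floxed, 614 in WT and 13.9 in 2i floxed. Dlk1, a Notch-ligand-like growth regulator, had 12.2 RPM in SL floxed, 3.91 in WT and 0.559 in 2i floxed. Snrpn and Peg10 were thus high in both serum cultures, and their reads were 18.1 and 27.3 times lower in 2i floxed than in SL floxed.

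Slc22a18, a transporter gene, and Usp29, a ubiquitin protease gene read from the Peg3 promoter region, went the other way. Slc22a18 had 4.78 RPM in SL floxed and 28.3 in 2i floxed, and Usp29 0.963 and 6.91. Igf2r, the clearance receptor for the growth factor Igf2, was at 148 in SL floxed and 292 in 2i floxed. Igf2 itself was at 34.8 RPM in SL floxed, 14.8 in 2i floxed and 2.26 in WT. Phlda2, which restrains placental growth, was at 89.1, 53.9 and 5.79 in the same order. Igf2 and Phlda2 were therefore higher in both floxed cultures than in the feeder-free WT cells, which are another line. Over SL floxed and WT, 4 of 25 members (Igf2, Phlda2, Nnat and Cdkn1c) differed by 4-fold or more, against 4.68% of 11953 genes.

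Fibroblast markers differed between these groups too. The 27 markers with a row summed to 507 and 535 FPKM in SL floxed and 808 and 698 in SL deleted, against 37.0 to 90.4 in the other 8 libraries. Prrx1, a fibroblast transcription factor, was at 3.44 to 7.92 FPKM in the 4 SL libraries and at 0.0539 or less elsewhere, and Col3a1 was listed at 0 in all tetON Foxd3 and WT libraries. Their part in the levels of members in SL was not tested. In such bulk samples fewer cells of a type and less RNA per cell cannot be told apart.

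**Figure D2:**
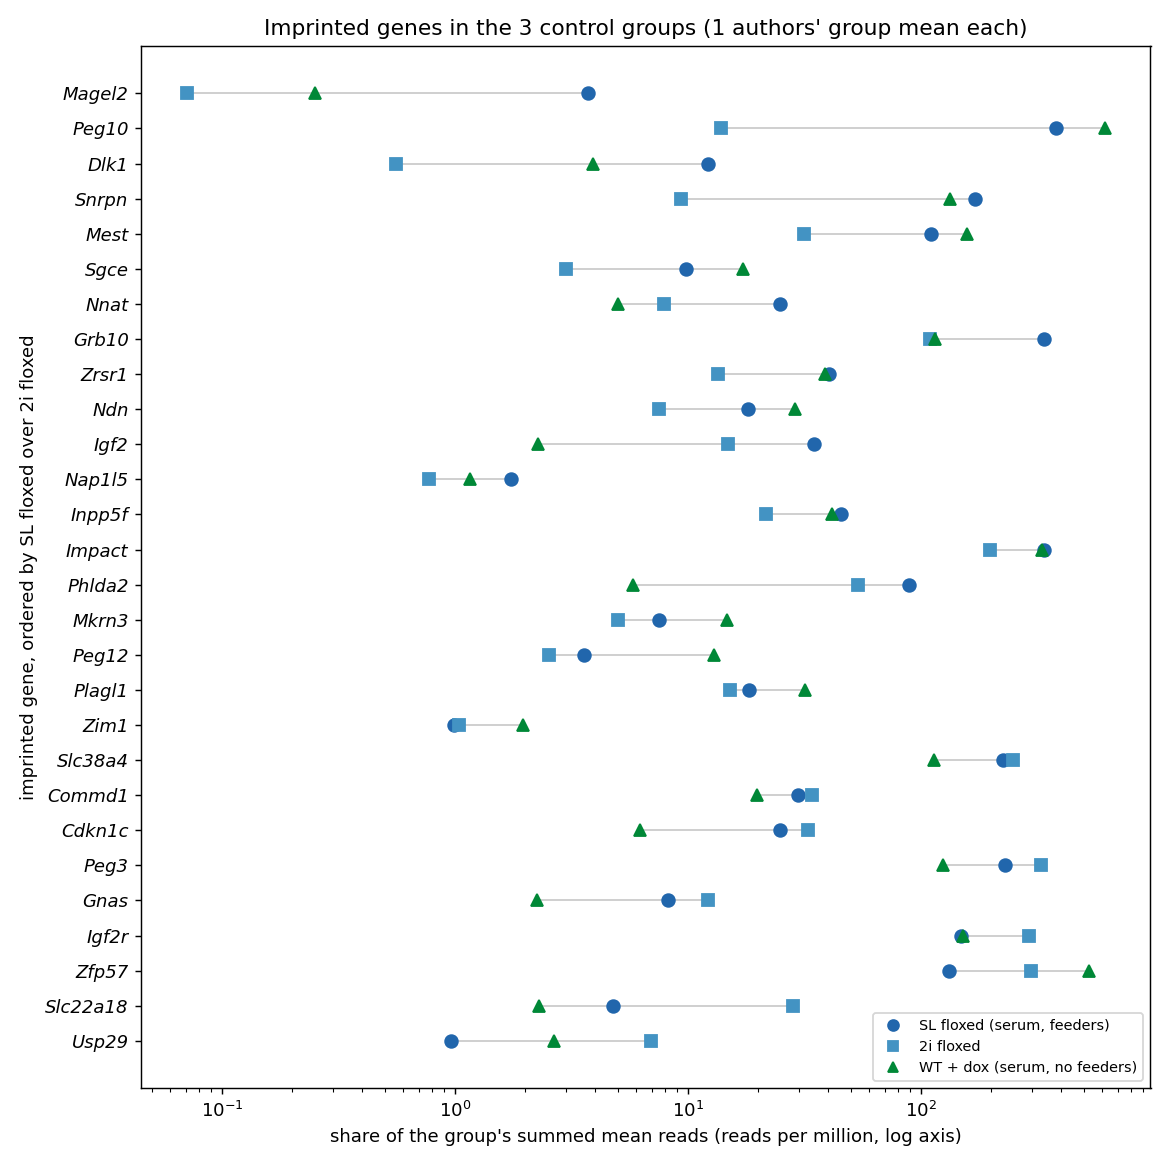
RPM, the authors' group mean reads scaled to the same total in every group (log axis), for each member in SL floxed, 2i floxed and WT, ordered by the ratio of SL floxed to 2i floxed. Magel2, Peg10, Dlk1 and Snrpn lie at the end with SL far above 2i, and Slc22a18 and Usp29 at the other end.

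The first comparison asked what removal of Foxd3 did to the members in SL. Phlda2 was lower and Peg12, a paternally expressed gene of the Prader-Willi region, was higher in SL deleted cells, and these 2 of 28 members passed the threshold of 0.05 on the authors' p-values (adjusted here over the table). By that test 0.44% of 19996 genes were higher and 0.095% lower, with no minimum level set. By limma on log2(FPKM + 1), without a term for the replicate number, 0 of 23 members passed at an adjusted p of 0.05. So did 0 of 12020 genes (percent called 0). With a term for the replicate number, limma called 5 members higher and 6 lower, beside 1170 and 827 genes. No label ties same-numbered libraries to a shared culture or day. At an unadjusted p under 0.05, limma gave 7 members, 2 higher and 5 lower, against 6.08% and 3.05% of all genes.

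Phlda2 (chromosome 7, 143501545 to 143503150, GRCm38, minus strand) measured 65.7 and 61.8 FPKM in SL deleted and 134 and 114 in SL floxed. Both deleted libraries were far below both floxed ones. The limma log2 difference was -0.95 (SE 0.12, adjusted p = 0.0890), and the authors' deposited table gives a 1.99-fold decrease with its p listed as 0. Phlda2 passed limma without SL deleted replicate 1 or 2 (adjusted p = 0.000464 and 0.000993) and did not pass without SL floxed replicate 1 or 2 (0.0790 and 0.0556). Phlda2 lies next to Slc22a18 and Cdkn1c in the Kcnq1ot1 domain. Slc22a18 differed by -0.38 on the log2 scale (SE 0.16, limma adjusted p = 0.539), and Cdkn1c, a growth-restraining cyclin-dependent kinase inhibitor, by -0.12 (SE 0.22, adjusted p = 0.952).

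Peg12 (chromosome 7, 62461871 to 62464510, minus strand), of the Frat family of GSK3-binding proteins, measured 3.36 and 3.76 FPKM in SL deleted and 1.26 and 1.32 in SL floxed, with no overlap. The limma log2 difference was 0.99 (SE 0.15, adjusted p = 0.146). The authors' deposited table gives a 2.82-fold increase (p = 0.00171 after adjustment). Its neighbours in the region did not pass either test. Ndn differed by 0.25, Mkrn3 by 0.18 and Snrpn by -0.05 on the log2 scale.

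Igf2, the fetal growth factor, measured 18.4 and 16.6 FPKM in SL deleted and 11.9 and 10.2 in SL floxed. The groups did not overlap, the limma log2 difference was 0.62 (SE 0.14, adjusted p = 0.212), and the authors' deposited table gives 1.64-fold (p = 0.0644 after adjustment). Its receptor gene Igf2r differed by 0.31 (95% interval -0.12 to 0.73). Nnat, Gnas and Dlk1 were lower in both deleted libraries than in both floxed ones, with log2 differences of -0.43, -0.37 and -0.41 and limma adjusted p of 0.503, 0.379 and 0.453. Over the 23 members tested the groups did not overlap for 6 higher and 6 lower, against 19.7% and 17.3% of all genes, and the members' median log2 difference was -0.03, against -0.01 over all genes.

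Markers of other cells differed beside this comparison. All 25 fibroblast markers tested had a positive log2 difference (median 0.52), and 0 passed the limma threshold. Trophoblast markers summed to 312 and 266 FPKM in SL deleted and 197 and 159 in SL floxed. Phlda2 and Peg12 moved in opposite directions beside these values, and the part of other cells in either was not tested.

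**Figure D3:**
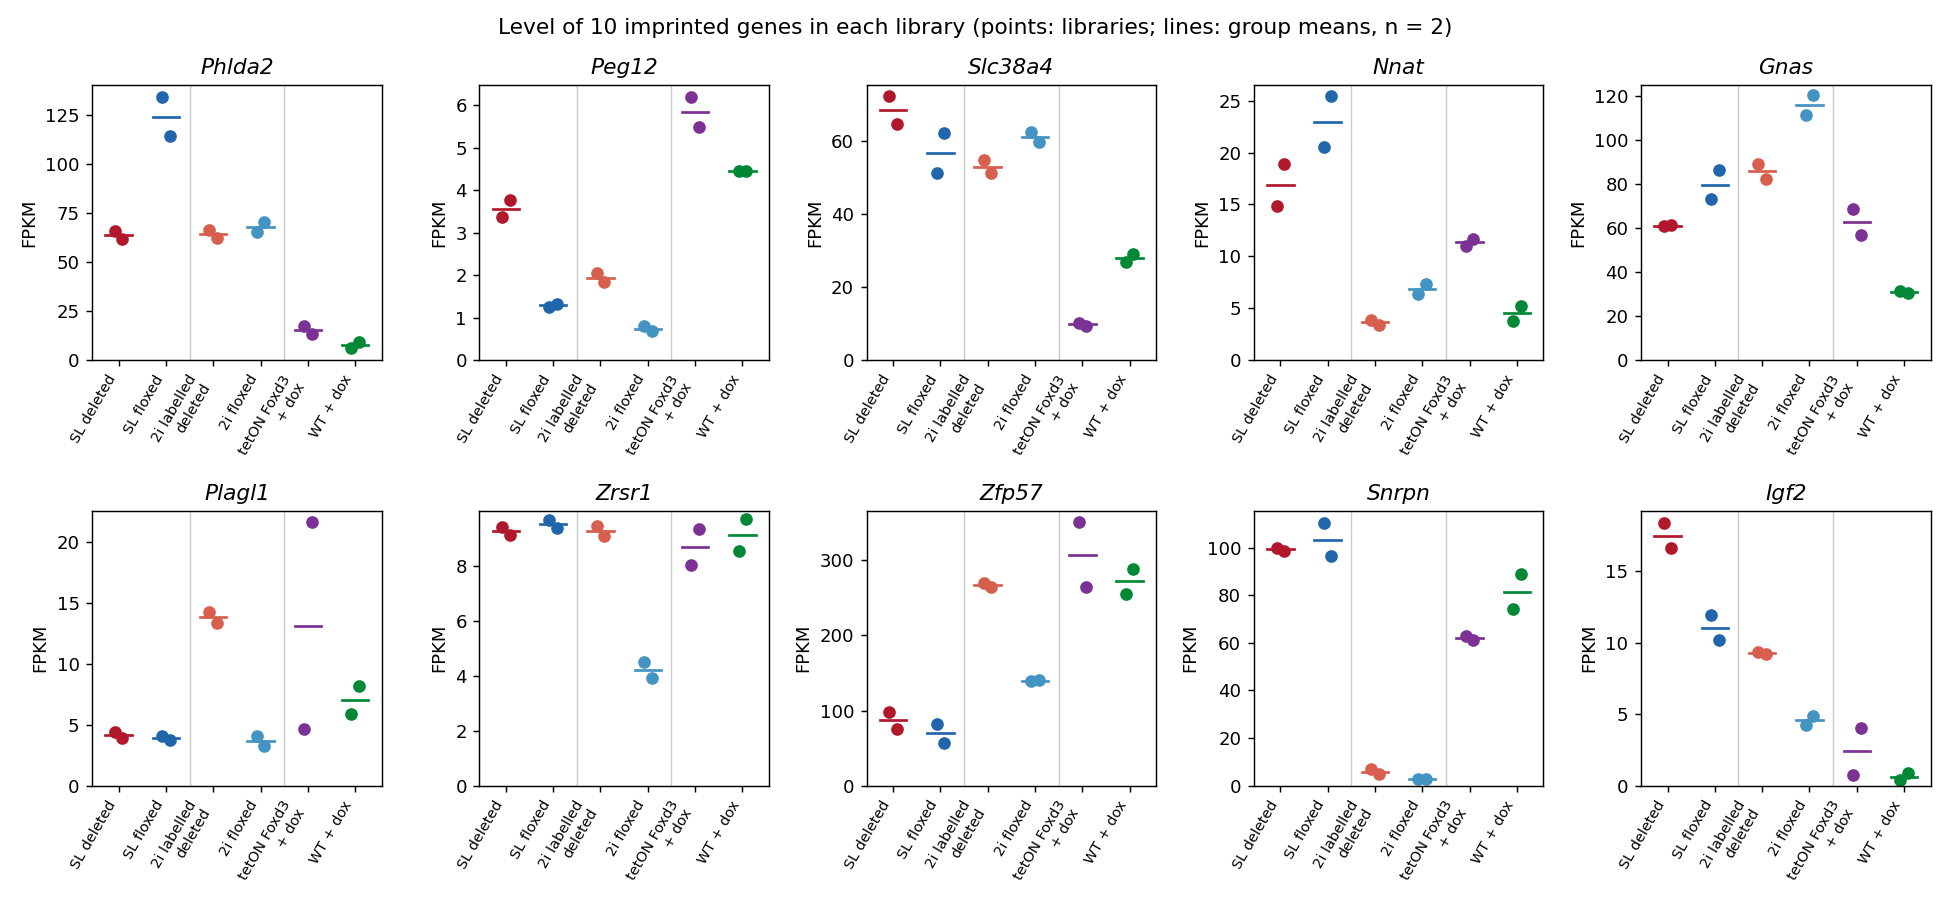
FPKM in each library (points) and group means (lines) for Phlda2, Peg12, Slc38a4, Nnat, Gnas, Plagl1, Zrsr1, Zfp57, Snrpn and Igf2. Phlda2 in SL deleted (65.7 and 61.8) lies below SL floxed (134 and 114), Slc38a4 in tetON Foxd3 (10.1 and 9.41) below WT (26.8 and 28.96), and Plagl1 in 2i labelled deleted (14.3 and 13.4) above 2i floxed (4.08 and 3.24).

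In 2i, most members differed between the libraries labelled deleted and floxed, as did most genes. By limma, 13 of 24 members were higher and 7 lower, against 48.1% and 19.8% of 11631 genes (67.8% in either direction), so the members' shares were near the background. All genes together were shifted by a median log2 difference of 0.19, which became -0.02 after median-of-ratios scaling. After that scaling 9 members were higher and 10 lower, against 30.5% and 34% of 11588 genes. Slc22a18, Sgce, Impact and Igf2r no longer passed, and Inpp5f, Phlda2 and Grb10 then passed as lower, of which the authors' deposited table lists Inpp5f 1.06-fold up. On the authors' p-values, 11 of 28 members were higher and 9 lower, against 20.6% and 20.2% of 19718 genes. No minimum level was set for these genes, so these shares are not on the same basis as those by limma. Beside these counts, summed fibroblast markers were at 58.9 and 57.9 FPKM in labelled deleted and 37.0 and 42.8 in floxed, without scaling. Summed pluripotency markers were at 3107 and 3057 against 2610 and 2466, also without scaling. By limma 6 of 11 fibroblast markers tested were higher and 3 lower as deposited, and 6 and 4 after scaling. Of 10 pluripotency markers 6 were higher and 0 lower as deposited, and 4 and 1 after scaling. The part of these markers in the members' differences was not tested.

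Plagl1 (chromosome 10, 13060504 to 13131694, plus strand), a zinc finger transcription factor that acts on other imprinted genes, had the largest difference in 2i among the members tested by limma. It measured 14.3 and 13.4 FPKM in the libraries labelled deleted and 4.08 and 3.24 in floxed, so the groups were far apart. The limma log2 difference was 1.68 (SE 0.11, adjusted p = 6.33e-06) and 1.48 after scaling, and the authors' deposited table gives 3.18-fold. In SL the gene stayed between 3.77 and 4.45 FPKM in all 4 libraries.

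The genes of the Prader-Willi region were higher in the libraries labelled deleted. All 4 tested passed by limma, before and after scaling, with a median log2 difference of 0.81 (0.66 after scaling), where 48.1% of all genes were called higher (30.5% after scaling). Snrpn measured 6.87 and 4.71 FPKM against 2.67 and 2.72, a log2 difference of 0.86 (SE 0.15, limma adjusted p = 0.000757). The 2 libraries labelled deleted differed from each other, and both were above both floxed ones. Mkrn3, a ubiquitin ligase gene linked to the timing of puberty, rose by 0.96, Peg12 by 0.76 and Ndn, a neuronal growth suppressor of the MAGE family, by 0.75. Peg12 measured 2.04 and 1.83 against 0.799 and 0.673 FPKM, with no overlap. Magel2, another MAGE family gene, was below the minimum for limma, and the authors' deposited table gives 3.70-fold (p = 0.0269 after adjustment) on group means of 12.6 and 1.92 reads. Snrpn in 2i lay below every serum library, of which the lowest held 61.0 FPKM.

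The stretches of 250 bases before the RefSeq transcription starts (GRCm38.p6) of 3 of these genes are shown, those of the region on the minus strand that passed limma in 2i. Ndn, on the plus strand, is not shown. Snrpn has several starts in RefSeq, and the one shown is the nearest to the gene model counted in the tables. Each is written 5′ to 3′ on the transcribed (minus) strand, in lower case with every CpG, the dinucleotide that carries DNA methylation, in capitals. They span chr7:60005200-60005449 for Snrpn, chr7:62420154-62420403 for Mkrn3 and chr7:62464511-62464760 for Peg12, and none overlaps an annotated exon.
Snrpn: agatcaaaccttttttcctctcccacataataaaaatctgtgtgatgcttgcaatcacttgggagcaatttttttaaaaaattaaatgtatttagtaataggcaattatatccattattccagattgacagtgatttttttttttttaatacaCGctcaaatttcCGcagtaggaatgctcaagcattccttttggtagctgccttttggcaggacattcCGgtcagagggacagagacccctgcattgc
Mkrn3: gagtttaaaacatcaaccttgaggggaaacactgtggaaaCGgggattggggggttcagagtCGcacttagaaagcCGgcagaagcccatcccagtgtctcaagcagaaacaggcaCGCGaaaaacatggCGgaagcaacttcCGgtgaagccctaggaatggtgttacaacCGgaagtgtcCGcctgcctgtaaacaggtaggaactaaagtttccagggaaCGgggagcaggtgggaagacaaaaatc
Peg12: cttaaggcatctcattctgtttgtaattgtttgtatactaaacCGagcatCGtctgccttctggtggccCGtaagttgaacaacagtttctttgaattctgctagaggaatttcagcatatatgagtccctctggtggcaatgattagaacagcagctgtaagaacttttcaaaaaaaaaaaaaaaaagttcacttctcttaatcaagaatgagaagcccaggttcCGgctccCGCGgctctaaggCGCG
The Snrpn stretch holds 3 CpG, the Mkrn3 stretch 10 and the Peg12 stretch 8. A forkhead core match (TGTTTAC, read on either strand) was found in the Mkrn3 stretch 59 bases before the start and in neither of the others.

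Zrsr1 (chromosome 11, 22972005 to 22976496, plus strand), a spliceosome gene that lies inside Commd1, measured 9.42 and 9.09 FPKM in 2i labelled deleted and 4.51 and 3.93 in 2i floxed. Its log2 difference was 0.98 (SE 0.10, limma adjusted p = 5.13e-05). In FPKM the libraries labelled deleted lay within the range of the 8 serum libraries, 8.03 to 9.71, but serum and 2i libraries were normalized separately. In RPM, Zrsr1 was at 27.8 in 2i labelled deleted, below the serum groups at 36.2 to 40.4. Commd1, its host, went the opposite way, with 180 and 171 against 212 and 216 FPKM and a log2 difference of -0.28 (adjusted p = 0.000906). Neither pair of groups overlapped.

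Zfp57 (chromosome 17, 37001163 to 37010635, plus strand), the reader of methylated imprints, measured 269 and 264 FPKM in 2i labelled deleted and 140 and 140 in 2i floxed. The log2 difference was 0.93 (SE 0.05, limma adjusted p = 1.79e-06) and 0.70 after scaling. In SL it was 98.5 and 75.1 in deleted against 82.8 and 56.8 in floxed, which overlap. In overexpression it was 351 and 264 against 255 and 289, which overlap too.

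Igf2 rose by 0.89 in 2i (SE 0.10, limma adjusted p = 7.75e-05), from 4.26 and 4.89 FPKM in floxed to 9.38 and 9.24 in labelled deleted. Igf2r rose by 0.28 as deposited (adjusted p = 0.0192), and its difference after scaling was 0.07 (adjusted p = 0.530). Sgce, a sarcoglycan gene that shares its promoter region with Peg10, rose by 0.46 as deposited (adjusted p = 0.00956) and missed the threshold after scaling (limma adjusted p = 0.0540). Igf2 still passed after scaling, with 0.69.

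Among the members that fell in 2i by limma, Nnat, a membrane proteolipid of neural and endocrine cells, had the largest difference. It measured 3.89 and 3.40 FPKM in labelled deleted and 6.33 and 7.34 in floxed, a log2 difference of -0.75 (SE 0.11, limma adjusted p = 0.000331). Mest, a hydrolase-like gene of mesoderm, fell by 0.55, Cdkn1c by 0.52, and Gnas, the stimulatory G protein alpha subunit, by 0.43. Gnas measured 89.1 and 82.6 FPKM against 112 and 121, and these groups do not overlap. The authors' deposited table puts Gnas first, with a 2.38-fold decrease against 2.02-fold for Nnat. For Gnas that fold rests on group means of 138 and 331 reads, low beside its FPKM. Peg3 fell by 0.28 and Slc38a4, an amino acid transporter, by 0.20, and after scaling their log2 differences were -0.49 and -0.42. Without 2i labelled deleted replicate 2, Slc38a4 missed the threshold (limma adjusted p = 0.107). Without that library, Sgce and Peg3 missed it too (limma adjusted p = 0.0706 and 0.0503). Peg3 missed it without 2i floxed replicate 1 (0.116), Igf2r without labelled deleted replicate 1 (0.0517) and, with Impact, without floxed replicate 2 (0.108 and 0.0713), all by limma. Usp29, Phlda2, Grb10 and Inpp5f, a phosphoinositide phosphatase gene, did not pass as deposited, with log2 differences between -0.12 and 0.31. Usp29 passed without 2i floxed replicate 1, with 0.54 (limma adjusted p = 0.00196). Impact, a regulator of translation, rose by 0.24 as deposited and lay at 0.02 after scaling. Zim1, a zinc finger gene beside Peg3, was under the minimum for limma, and the authors' deposited table lists it 2.30-fold up. Nap1l5, a nucleosome assembly protein gene, stayed under 1 FPKM as a mean in every group.

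By the parent whose copy is known to be expressed, 10 of 15 paternal members were higher in 2i and 4 lower by limma, with a median of 0.75, against 48.1% and 19.8% of all genes. After scaling these counts were 8 and 4, against 30.5% and 34% of genes. Of 4 maternal members 2 were higher and 1 lower as deposited, and 0 and 2 after scaling. A group of 4 members placed in neither class (Inpp5f, Gnas, Grb10 and Commd1) gave 0 higher and 2 lower, and 0 and 4 after scaling. Median log2 differences of all genes were 0.19 and -0.02 on the same scales, and no test was made between these small classes.

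**Figure D4:**
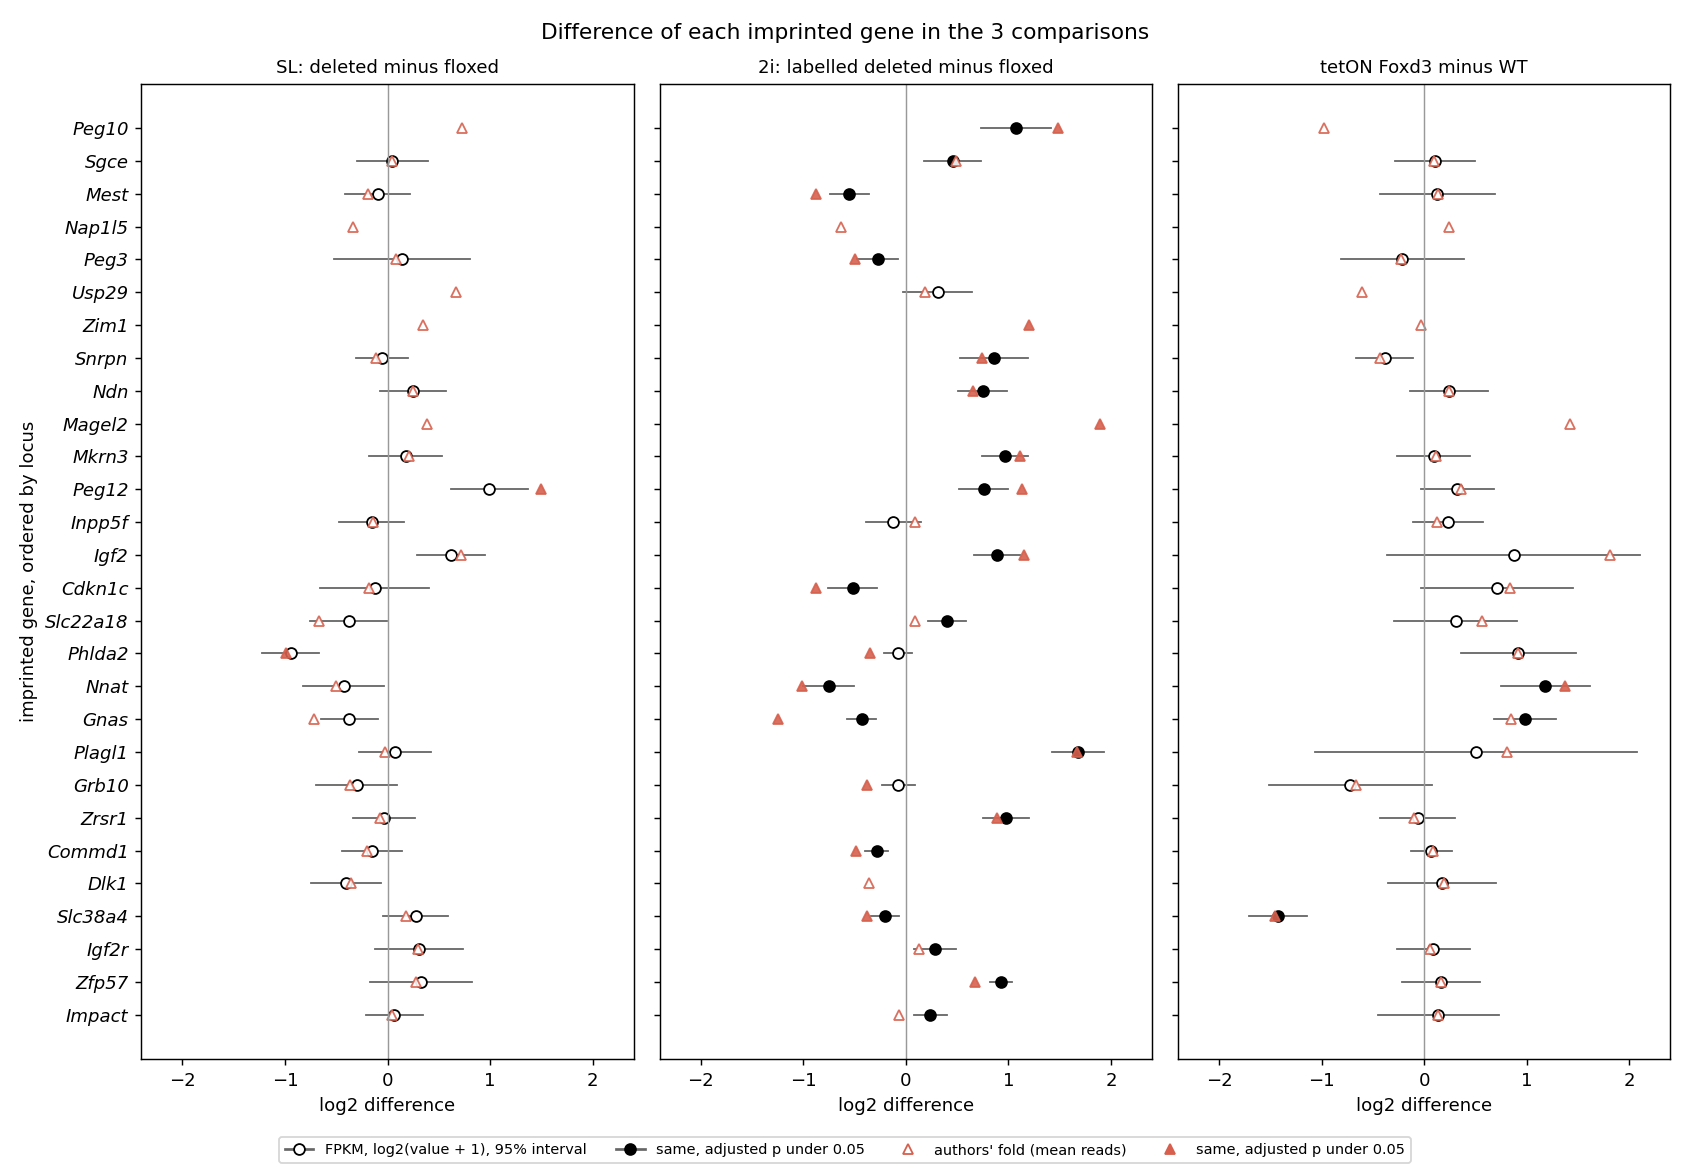
The log2 difference of each member with its 95% interval (circles, limma, filled where the adjusted p is under 0.05) and the authors' log2 fold (triangles, filled likewise), in SL, 2i and overexpression. Filled circles are absent in SL, number 20 in 2i with Plagl1 at 1.68 the largest, and number 3 in overexpression: Nnat, Gnas and Slc38a4.

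Few members differed between tetON Foxd3 and WT cells. By limma, Nnat and Gnas were higher and Slc38a4 lower in tetON Foxd3 than in WT, 2 and 1 of 23 members, against 1.04% and 1.69% of 11968 genes. On the authors' p-values Nnat and Slc38a4 passed, 1 of 28 members in each direction, against 1.96% and 2.59% of genes with no minimum level set. With no filter on low values, limma called 0 genes and 0 members. The 2 groups are different lines, and line and Foxd3 level cannot be told apart. Neural progenitor markers summed to 21.2 and 25.8 FPKM in tetON Foxd3 and 9.58 and 15.4 in WT. Pluripotency markers summed to 3274 and 2737 FPKM in tetON Foxd3 and 3963 and 3838 in WT. Of 10 pluripotency markers tested, 5 had a positive log2 difference, and the median was -0.04. By limma 0 of them were higher and 2 lower, and of 4 neural progenitor markers tested 2 were higher and 0 lower. The part of these cell states in the members' differences was not tested.

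Slc38a4 (chromosome 15, 96994820 to 97055956, minus strand) measured 10.1 and 9.41 FPKM in tetON Foxd3 and 26.8 and 28.96 in WT. The WT libraries were both far above the others. The limma log2 difference was -1.42 (SE 0.11, adjusted p = 0.0161), and the authors' deposited table gives a 2.74-fold decrease. It passed without each of the 4 libraries in turn. In SL the same gene was at 72.3 and 64.8 FPKM in deleted and 51.2 and 62.2 in floxed, a difference of 0.27 that did not pass (adjusted p = 0.628). The 250 bases before its most upstream RefSeq start (chr15:97055957-97056206, minus strand, GRCm38.p6) are shown as those of the member with the largest fall, with CpG in capitals.
Slc38a4: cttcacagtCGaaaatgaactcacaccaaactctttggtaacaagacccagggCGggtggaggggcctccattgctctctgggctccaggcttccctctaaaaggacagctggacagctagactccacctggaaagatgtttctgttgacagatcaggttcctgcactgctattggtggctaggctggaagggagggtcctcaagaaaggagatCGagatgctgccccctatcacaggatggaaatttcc
This stretch holds 3 CpG and no match to the forkhead core.

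Nnat (chromosome 2, 157560078 to 157562522, plus strand) measured 10.95 and 11.7 FPKM in tetON Foxd3 and 3.76 and 5.21 in WT, with no overlap. The limma log2 difference was 1.18 (SE 0.17, adjusted p = 0.0413), and the authors' deposited table gives 2.59-fold (p = 0.00270 after adjustment). Its limma adjusted p was 0.0568 to 0.115 when any 1 of the 4 libraries was left out. Gnas (chromosome 2, 174284320 to 174346744, plus strand) measured 68.7 and 56.7 against 31.6 and 30.6 FPKM, a log2 difference of 0.98 (SE 0.12, limma adjusted p = 0.0288). Gnas missed the threshold without either WT library (0.0769 and 0.0635 by limma) or tetON Foxd3 replicate 1 (0.0509), and the authors' deposited table gives 1.80-fold (p = 0.543 after adjustment). For Gnas the authors' mean reads were low beside its FPKM (214 and 119 reads), so the 2 measures do not weigh it alike.

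Nnat and Gnas were the members called in opposite directions in 2 comparisons, lower in 2i labelled deleted and higher in tetON Foxd3. In SL deleted both lay below floxed without passing. Phlda2 measured 17.2 and 13.1 FPKM in tetON Foxd3 and 6.11 and 9.09 in WT, a log2 difference of 0.92 (limma adjusted p = 0.0955). The authors' deposited table gives 1.88-fold for it (p = 0.111 after adjustment). Cdkn1c differed by 0.71 (adjusted p = 0.258). Plagl1 and Igf2 differed between the 2 tetON Foxd3 libraries, with 4.63 and 21.7 FPKM for Plagl1 and 0.766 and 4.04 for Igf2. Replicate 2, the higher one for both, also held more summed fibroblast markers, 90.4 FPKM against 66.3 in replicate 1, with Col3a1 at 0 in both. Summed trophoblast, primitive endoderm and neural progenitor markers were higher in replicate 2 too, the neural ones at 25.8 FPKM against 21.2. Summed pluripotency and germ cell markers were lower there, with pluripotency markers at 2737 FPKM against 3274. The replicates thus differed in several marker lists, and the part of these lists was not tested. Without tetON Foxd3 replicate 1, Plagl1 passed limma with 1.51 (adjusted p = 0.0398). Grb10, a growth-restraining signalling adaptor, was also uneven there, with 7.63 and 16.2 FPKM against 18.6 and 19.6 in WT.

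Peg10 (chromosome 6, 4747306 to 4760517, plus strand) could not be read from FPKM in the serum tables. It was at 102 and 82.1 FPKM in SL deleted and listed at 0 in both SL floxed libraries, although the authors' deposited table gives group means of 33856 and 20523 reads. In overexpression, tetON Foxd3 replicate 2 and WT replicate 2 were listed at 0 and the others at 25.6 and 81.8 FPKM. By the authors' deposited table Peg10 was 1.65-fold higher in SL deleted (p = 0.170 after adjustment) and 1.97-fold lower in tetON Foxd3 (p = 0.202). In 2i it measured 5.45 and 5.65 FPKM in labelled deleted against 1.63 and 2.68, a log2 difference of 1.07 (SE 0.15, limma adjusted p = 0.000266). Failed values of this kind numbered 4, 8 and 4 in the SL, 2i and overexpression tables.

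Whether the deletion contrast itself differed between 2i and SL was tested over the 8 libraries of the floxed line. By limma, 6 of 24 members had a higher contrast in 2i and 1 a lower one, against 18.5% and 5.56% of 12486 genes. Plagl1 had the largest difference, 1.60 (SE 0.18, adjusted p = 0.00262). Zrsr1 differed by 1.01, Snrpn by 0.91, Phlda2 by 0.87, Mkrn3 by 0.79 and Slc22a18 by 0.78, and Slc38a4 by -0.48. After scaling the members called were 6 and 2, against 9.97% and 11.8% of genes, with Mest as the added one. Peg12, with the libraries labelled deleted above floxed ones in both media, differed by -0.24 (95% interval -0.60 to 0.13), and Nnat and Gnas, with the libraries labelled deleted below floxed ones in both, by -0.33 and -0.06 (intervals -0.81 to 0.16 and -0.36 to 0.24).

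The separate contrasts of these members show where they part. Phlda2 had a log2 difference of -0.95 in SL and -0.08 in 2i. After scaling, Phlda2 in 2i was at -0.30 and passed as lower (limma adjusted p = 0.00486), and the authors' deposited table gives a 1.27-fold decrease there. Plagl1, Zrsr1 and Snrpn were at 0.07, -0.03 and -0.05 in SL and at 1.68, 0.98 and 0.86 in 2i. Slc22a18 lay at -0.38 in SL and 0.40 in 2i, or 0.19 after scaling, which did not pass (limma adjusted p = 0.0598). The test takes the 2 tables as being on 1 scale, and by limma the 2i contrast carried no difference in Foxd3 that passed. The authors' deposited table lists Foxd3 1.7-fold up in that contrast (p = 9.43e-06 after adjustment).

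Genes that keep or remove DNA methylation at imprints gave these counts. Of 18 tested, 0 passed by limma in SL. In 2i 9 of 19 were higher and 4 lower, against 48.1% and 19.8% of all genes, and 8 and 8 after scaling, against 30.5% and 34%. The share higher as deposited was thus near the background. Dnmt3l, the cofactor of the de novo methyltransferases, had the smallest adjusted p, with 40.6 and 47.9 FPKM in labelled deleted against 14.3 and 13.5 in floxed, a log2 difference of 1.60 (SE 0.09). Atrx, a chromatin remodeller, rose by 0.90 and Zfp445, a zinc finger protein that acts beside Zfp57, by 0.92. Dnmt3b, a de novo methyltransferase, fell by 0.76.

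In tetON Foxd3, 0 of 18 of these regulators were higher and 2 lower, against 1.04% and 1.69% of all genes. Dppa3, which shields imprints in the early embryo, fell by 1.95 (SE 0.15, limma adjusted p = 0.0139), from 9.95 and 11.5 FPKM in WT to 2.02 and 2.02. Dnmt3l fell by 1.18 (adjusted p = 0.0397). In SL deleted, both lay above floxed without passing, at 0.89 and 0.53.

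A second list held 39 other imprinted genes, 34 with a row. By limma 0 of 22 tested passed in SL, 8 of 18 were higher and 3 lower in 2i, and 1 of 23 was higher and 0 lower in overexpression. Over all genes the shares were 48.1% and 19.8% in 2i and 1.04% and 1.69% in overexpression. After scaling the counts in 2i were 4 and 5, against 30.5% and 34% of genes. Ascl2, a transcription factor of the placenta, fell by 1.54 in 2i, from 6.50 and 6.87 FPKM to 1.48 and 1.84. Calcr, the calcitonin receptor, rose by 1.30 in overexpression (SE 0.16, limma adjusted p = 0.0289), from 0.0639 and 0.146 FPKM to 1.80 and 1.65.

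Partners of Igf2 and other genes of the growth axis numbered 13 tested in each comparison. By limma 0 passed in SL, 5 were higher and 4 lower in 2i (3 and 5 after scaling), and 1 was higher and 1 lower in overexpression (0 and 1 after scaling). The shares of all genes were 48.1% and 19.8% in 2i (30.5% and 34% after scaling) and 1.04% and 1.69% in overexpression (0.869% and 1.69% after scaling). Igfbp4, a binding protein of insulin-like growth factors, fell by 3.11 in 2i, from 30.2 and 28.6 FPKM to 2.43 and 2.62. Lin28a, which binds let-7 precursors, fell by 1.34 there, and Hmga2 rose by 1.36. In overexpression Igf2bp2, an RNA-binding protein of Igf2 transcripts, fell by 1.82 (adjusted p = 0.0215) and Igfbp3 rose by 1.20 (adjusted p = 0.0484, limma for both).

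Promoter sequence was compared over windows of 300 bases, 250 before to 50 after each RefSeq start. Of the members 27 matched, with 45 promoters. Their median number of CpG was 12, against 7 over 32851 promoters, and their median CpG observed over expected was 0.58 against 0.38. TGCCGC, the hexamer that Zfp57 recognises when its CpG is methylated, was present on either strand in 24.4% of member promoters (11 promoters of 10 genes) and in 11.6% of all. The hexamer holds a CpG itself, and the shares were not compared at equal CpG number. The forkhead core TGTTTAC was in 6.67% of member promoters, those of Nap1l5, Mkrn3 and Dlk1, and in 3.65% of all. Several members have more than 1 promoter, some of them overlapping, so promoters are not independent, and a match says nothing of binding in these cells.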

How the data were processed

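Gene expression was measured by RNA-seq in 12 libraries, in 6 groups of 2. Per the file headers, the deposited tables, 1 per comparison, give FPKM for each library, and the groups of a table were normalized together by the authors. The other deposited columns, per the file headers, are the read signal averaged over a group, the fold or ratio between groups with a sign, and the p-value before adjustment. These deposited p-values are rounded, so small ones are listed as 0. Per the submitters' processing notes, the tools were TopHat2, Cufflinks, DESeq2, SAMtools and FastQC on GRCm38 (mm10), and versions and settings are not given in the sources used.

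Differences were fitted with limma 3.58.1 in R 4.3.3 (with a mean-variance trend) on log2(FPKM + 1), which understates the change of low genes. The 4 libraries of a comparison entered alone, and the 8 of SL and 2i together for the difference between media. Genes reaching a group mean of 1 FPKM in any group were tested, and p-values were adjusted by Benjamini and Hochberg over all of them with a threshold of 0.05. A listed 0 FPKM was treated as a failed estimate, and left out, where the group held over 200 mean reads. The authors' p-values were adjusted over each table, with no minimum level, as a second set of calls. Shares of genes by that set therefore include genes too low to be tested by limma. An exact permutation of 2 libraries against 2 was not used, since it cannot pass this threshold. The limma step was run on simulated data with libraries drawn independently, so it does not cover a correlation between same-numbered libraries. Coordinates come from GENCODE M21 and promoters from RefSeq.

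The members and gene lists were chosen with earlier results of these data known. Values in every library are given for members passing limma with a log2 difference of at least 1 in any comparison, members passing on the authors' p-values in SL or overexpression with a fold of at least 1.5, members with failed estimates, members called in opposite directions, and Zfp57. Snrpn, Igf2, Commd1 and Grb10 were added after their values were seen. Other lists are named by up to 4 genes with the smallest adjusted p. Alternatives were another pseudocount (0.1), no filter, failed estimates kept, median-of-ratios scaling, no trend, a replicate block, a spread shared by 8 libraries, the authors' p-values and each library left out.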

Additional observations from a re-analysis of the deposited data

Results flagged for a closer look

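For 7 members the deletion contrast differed between 2i and SL by a test of that difference (limma over 8 libraries, adjusted over 12486 genes). Of the 24 members tested 25% were higher and 4.17% lower, against 18.5% and 5.56% of all genes, so as deposited these shares were near the background. After median-of-ratios scaling 25% were higher and 8.33% lower, against 9.97% and 11.8% of genes. The difference, 2i minus SL on the log2 scale, was 1.60 for Plagl1 (adjusted p = 0.00262), 1.01 for Zrsr1 (adjusted p = 0.00530) and 0.87 for Phlda2 (adjusted p = 0.00532). For Snrpn it was 0.91 (adjusted p = 0.0157), for Mkrn3 0.79 (adjusted p = 0.0106) and for Slc22a18 0.78 (adjusted p = 0.0126), all by limma. For Slc38a4 it was -0.48 (adjusted p = 0.0456). All 7 passed after median-of-ratios scaling, where the median difference of all genes moved from 0.17 to -0.01. Without 2i floxed replicate 2 the limma adjusted p of Snrpn, Mkrn3 and Slc22a18 was 0.0639, 0.0507 and 0.0615. Each of the 3 also missed the threshold without another library: Snrpn without 2i floxed replicate 1 (0.0512), Mkrn3 without 2i labelled deleted replicate 2 (0.0607) and Slc22a18 without either library labelled deleted (0.0556 and 0.0689). Slc38a4 missed the threshold without any 1 of 6 libraries: SL deleted replicate 1 (0.123), SL floxed replicate 1 (0.0594), 2i labelled deleted replicates 1 and 2 (0.0999 and 0.167) and 2i floxed replicates 1 and 2 (0.136 and 0.115). Plagl1, Zrsr1 and Phlda2 passed without each of the 8 libraries in turn. In the 2i libraries of this contrast Foxd3 differed by -0.09 on the log2 scale (limma adjusted p = 0.463), or -0.25 after scaling (adjusted p = 0.0590). The authors' deposited table lists Foxd3 1.7-fold up there (p = 9.43e-06 after adjustment).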

How the results depend on the processing

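In SL, limma called 0 genes. With failed estimates kept it called 1 gene and 1 member higher. With 8 libraries sharing the spread it called 245 genes higher and 55 lower, and 2 members higher and 1 lower; the authors' p-values gave 88 and 19 genes, and 1 and 1 members. In 2i, scaling gave 3531 and 3941 genes, the authors' p-values 3980 genes lower, and the shared spread 4 members lower. In overexpression, no filter gave 0 genes and 0 members each way, and the authors' p-values 392 and 517 genes with 1 member higher. For the difference between media, scaling gave 1241 and 1464 genes and 2 members lower, failed estimates kept 2 lower, and no filter or no trend 0 lower. The cause of these shifts was not tested.

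No label ties libraries of the same replicate number to a shared culture or day. Same-numbered libraries deviated from their group means with a correlation of 0.67, -0.08 and 0.60 in SL, 2i and overexpression, over 2 numbers each. With the replicate block, SL gave 1170 genes higher and 827 lower (members 5 and 6), overexpression 1247 and 1258 (members 4 and 2), and the difference between media 3968 and 1437 (4 members lower).

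Leaving out each library, SL gave 0 to 225 genes higher and 0 to 82 lower, with 0 members higher and 0 to 1 lower. It gave 53 and 14 genes without deleted replicate 1, 225 and 82 without deleted replicate 2, and 1 and 2 without floxed replicate 2. In 2i the ranges were 4609 to 5517 and 1880 to 2325 genes, and 11 to 14 and 5 to 7 members. Overexpression gave 9 to 123 and 43 to 239 genes, and 0 to 2 and 1 to 2 members; the counts fell to 9 and 43 without WT replicate 1, 20 and 73 without WT replicate 2, and 45 and 107 without tetON Foxd3 replicate 1. The difference between media gave 494 to 2817 and 190 to 1003 genes, and 3 to 7 and 0 to 3 members, with the lowest counts without 2i labelled deleted replicate 2 (494 and 190), 2i floxed replicate 2 (681 and 234), 2i labelled deleted replicate 1 (894 and 246), 2i floxed replicate 1 (1398 and 353) and SL deleted replicate 1 (1512 and 480). A left-out library leaves its group with 1, assumed to vary like the others.

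Of the members' differences that the text prints, 12 values turned direction, of which only Impact in 2i had passed as deposited (-0.070 on the authors' fold). On the same fold Plagl1 in SL was at -0.029 and Inpp5f in 2i at 0.084, and the rest turned with 1 library left out. In SL Cdkn1c ranged from -0.37 to 0.12 (above 0 without SL deleted replicate 1 or SL floxed replicate 2) and Snrpn from -0.15 to 0.043 (above 0 without SL floxed replicate 1). In 2i Inpp5f ranged from -0.28 to 0.035 (above 0 without 2i labelled deleted replicate 2). In overexpression Zrsr1 ranged from -0.16 to 0.033 (above 0 without tetON Foxd3 replicate 1 or WT replicate 2), Zfp57 from -0.040 (without tetON Foxd3 replicate 1) to 0.37 and Plagl1 from -0.50 (without tetON Foxd3 replicate 2) to 1.51 (without replicate 1). Between media Gnas ranged from -0.18 to 0.061 (without SL floxed replicate 1). Of the other values of single members, 656 kept direction and call, 47 lost the call and 31 gained one. Depth per library is unknown, which limits what can be said of members under 1 FPKM.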
